A study of Homo sapiens with 8 samples.

Results

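Glycolysis and hypoxia response genes were measured in RNA pulled down with biotinylated probes from fixed chromatin (ChIRP) of acute myeloid leukaemia cells in which the long non-coding RNA gene HOTSCRAMBL had been edited. The 37 genes were a list chosen with earlier results of these data known. Matched by Ensembl identifier to gene symbols, all 37 were found among the 63140 genes of the count table. They comprise 4 glucose, fructose and lactate transporters, 9 upper glycolysis enzymes, 2 regulators of fructose-2,6-bisphosphate, 6 lower glycolysis enzymes, 3 genes of the pyruvate branch, 3 genes of oxygen sensing, 9 other hypoxia-inducible genes and the glucose-responsive gene TXNIP. After a filter on low counts 36 of them were tested among 24057 genes. CA9, which encodes a hypoxia-inducible carbonic anhydrase, did not pass: it had no count in 6 libraries and 4 and 16 counts in the HOTSCRAMBL CBE libraries.

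The 8 libraries form 4 groups of 2, all taken at day 3 after nucleofection. AAVS1 KO and HOTSCRAMBL KO cells received Cas9 ribonucleoprotein, which cuts both DNA strands, and AAVS1 CBE and HOTSCRAMBL CBE cells received a cytosine base editor, which rewrites C as T and leaves the double strand uncut. AAVS1, a safe-harbour site, serves as the control target of each editor. Within each group replicate 1 is labelled MOLM13 and replicate 2 OCI-AML4, both established human acute myeloid leukaemia lines, so by its labels a group holds 1 library of each line and no repeat culture of either. The labels also give the lines different media, RPMI 1640 for MOLM13 and MEM alpha for OCI-AML4. Cells were fixed with glutaraldehyde and sonicated, and RNA held on biotinylated probes was isolated on streptavidin beads. The probes' target is not given in the sources used here, no input library was analysed here, and the level of the edited RNA itself was not analysed here. Every level below is therefore a share of the recovered RNA, and a change in a gene's RNA in the cells cannot be told apart from a change in its recovery.

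Glycolysis splits glucose into pyruvate: upper enzymes spend ATP to make triose phosphates, and lower enzymes regain it while reducing NAD+, which lactate dehydrogenase restores. Under low oxygen, prolyl hydroxylases of the EGLN family no longer mark HIF alpha subunits for destruction. HIF then binds hypoxia response elements, built on the core RCGTG, near genes for glucose uptake, glycolysis, angiogenesis and mitophagy, and leukaemia cells commonly rely on high glycolytic flux.

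RefSeq promoter windows on GRCh38.p14 were matched for 33 of the 37 genes, with 62 tabulated start sites, and BNIP3L, VEGFA, SLC2A3 and NDRG1 had no window. In the 250 bases before the start, read on both strands, ACGTG, one form of the core, occurred in 23 of the 62 windows (37.1%) against 18.5% of 35116 RefSeq windows. GCGTG, the other form, occurred in 20 of 62 windows (32.3%) against 32.2%. CACGTG, the E-box that contains ACGTG, occurred in 8 of 62 windows (12.9%) against 6.34%. A gene with several start sites has windows that can share bases, and a match is a run of letters, not a measured binding site. The windows of 4 genes called higher with 1 or both editors are shown with that of PFKL, which was lower with both, because they hold from 3 matches to ACGTG to 0. These windows are examples and do not stand for all called genes. Each is printed 5′ to 3′ on the gene's strand, with ACGTG, its reverse complement CACGT and the E-box joining them in capitals.
GAPDH, chr12:6535014-6535263, plus strand: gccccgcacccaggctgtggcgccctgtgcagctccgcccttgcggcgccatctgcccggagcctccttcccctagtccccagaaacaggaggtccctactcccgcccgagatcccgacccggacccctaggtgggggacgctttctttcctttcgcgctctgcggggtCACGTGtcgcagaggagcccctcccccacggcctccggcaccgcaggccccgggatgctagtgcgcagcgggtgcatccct
PGK1, chrX:78103998-78104247, plus strand: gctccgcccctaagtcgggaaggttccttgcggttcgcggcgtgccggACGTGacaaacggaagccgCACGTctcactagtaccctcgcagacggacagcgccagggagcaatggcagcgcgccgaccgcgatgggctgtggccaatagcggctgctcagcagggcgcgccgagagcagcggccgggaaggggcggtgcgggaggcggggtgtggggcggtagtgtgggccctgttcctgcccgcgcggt
LDHA, chr11:18394313-18394562, plus strand: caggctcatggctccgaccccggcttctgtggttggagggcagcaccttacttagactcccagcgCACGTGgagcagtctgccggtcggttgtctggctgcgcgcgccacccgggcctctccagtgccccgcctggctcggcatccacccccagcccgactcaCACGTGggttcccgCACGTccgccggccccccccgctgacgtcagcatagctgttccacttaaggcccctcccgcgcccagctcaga
BNIP3, chr10:131981924-131982173, minus strand: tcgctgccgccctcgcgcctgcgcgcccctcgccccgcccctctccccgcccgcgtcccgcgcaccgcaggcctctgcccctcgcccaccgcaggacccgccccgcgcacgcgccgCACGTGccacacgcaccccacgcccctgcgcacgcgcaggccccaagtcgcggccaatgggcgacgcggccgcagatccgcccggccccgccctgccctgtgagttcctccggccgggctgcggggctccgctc
PFKL, chr21:44299803-44300052, plus strand: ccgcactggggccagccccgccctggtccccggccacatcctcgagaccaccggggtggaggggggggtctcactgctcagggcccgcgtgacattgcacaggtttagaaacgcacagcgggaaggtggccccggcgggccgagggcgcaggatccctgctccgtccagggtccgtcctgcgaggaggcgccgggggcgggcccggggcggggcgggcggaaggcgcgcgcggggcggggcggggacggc
Counting back from the start site, the matches began at base -81 in GAPDH, -202 and -183 in PGK1, -134 in BNIP3 and -185, -87 and -73 in LDHA, for which the first of 2 tabulated start sites is shown. PFKL held no ACGTG in its window. GCGTG, on either strand, was left in lower case: PFKL and PGK1 each held 1 and BNIP3 held 4. Among other genes called higher, TPI1, TXNIP, ALDOC, P4HA1 and PFKFB3 held ACGTG in a tabulated window. ENO1, PKM, SLC2A1, HK1, EGLN3 and ADM, also called higher, held none. Of other genes called lower, PFKP, SLC16A3 and EGLN1 held ACGTG in a window. Whether matches go with the direction of change was not tested.

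Library totals ran from 20548300 to 37970163 counts, with 21945 to 26083 genes detected. Libraries labelled with different cell lines differed at 119 of 24057 genes (0.495%) by edgeR's quasi-likelihood test, of 2210 at an unadjusted p under 0.05. None of the 36 tested genes of the list was among them, with 6 at an unadjusted p under 0.05 and 2 called by DESeq2. Libraries with the same line label deviated little together from their group means, with correlations of 0.020 to 0.053 over all tested genes. Over tested genes above the median level the correlations were 0.045 to 0.127. The labels were not checked in any other way here, so whether the 2 libraries of a group are different lines remains in doubt, and replicates, pairs and the line term below follow the labels only. The AAVS1 KO and AAVS1 CBE controls differed at 0 genes (0%, 918 at an unadjusted p under 0.05, 35 with DESeq2 and 1 with limma-voom), and the list had 1 gene at an unadjusted p under 0.05 and none called by DESeq2. The 12 myeloid markers, with KIT and CD34 near 0, summed to 1388 to 1492 CPM (counts scaled to a common library size) in AAVS1 KO and 1769 to 1957 CPM in HOTSCRAMBL KO, and to 1422 to 1434 CPM in AAVS1 CBE and 1643 to 1689 CPM in HOTSCRAMBL CBE. The sum was thus higher in HOTSCRAMBL libraries without overlap with both editors. LYZ alone ran from 116 to 702 CPM and MEIS1 from 143 to 451 CPM over the 8 libraries. The direction of single markers was not taken, and the markers' part in the results below was not tested. Erythroid markers summed to at most 1.66 CPM and B cell markers to at most 11.4 CPM. T cell markers summed to 9.72 to 12.4 CPM in HOTSCRAMBL CBE and 1.30 to 7.24 CPM elsewhere, with CD3E and CD2 at 0. TRAC alone ran from 1.16 to 12.2 CPM over the 8 libraries, and CD3D reached at most 2.35 CPM. Epithelial markers summed to 0.134 to 0.357 CPM in HOTSCRAMBL KO and 2.60 to 5.40 CPM elsewhere, and those of fibroblasts and stroma to at most 1.60 CPM.

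With Cas9, 17 of the 36 tested genes passed the threshold, an adjusted p under 0.05 over all 24057 genes in edgeR's quasi-likelihood test, 13 higher and 4 lower in HOTSCRAMBL KO than in AAVS1 KO. Over all tested genes 8.76% passed, 4.51% higher and 4.25% lower. With the base editor 16 of 36 passed, 13 higher and 3 lower, against 8.83% of all genes, 4.56% higher and 4.27% lower. Abundant genes pass more often: 33 of the 36 lie above the median level of tested genes, and of the 12028 genes above it 16.1% passed with Cas9 and 16.8% with the base editor. The median log2 fold change of the list was 0.37 with Cas9 and 0.43 with the base editor, beside -0.01 and -0.02 over all tested genes. Every call had the same direction in the pair labelled MOLM13 and the pair labelled OCI-AML4, 17 of 17 with Cas9 and 16 of 16 with the base editor. The calls were made from these same pairs, so their shared direction is no separate support. Over all 36 tested genes the pairs differed in direction for 7 with Cas9 and 11 with the base editor. SLC2A3, TPI1, GAPDH, PGK1, ENO1, PKM, NDRG1 and TXNIP passed as higher with both editors, and PFKL and PFKP as lower with both.

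**Figure D1:**
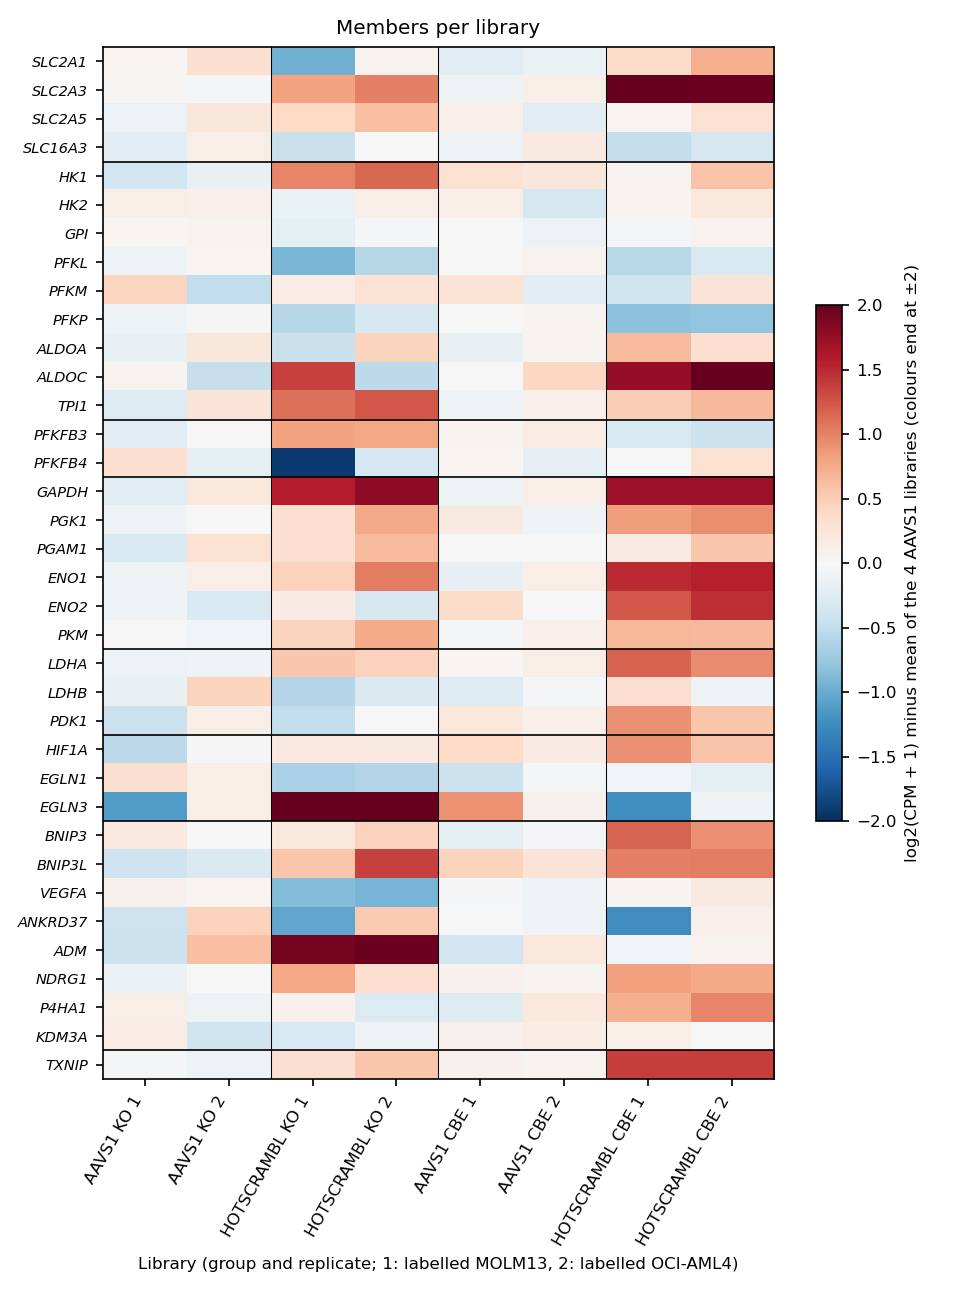
Each row is 1 of the 36 tested genes, ordered by role from transporters at the top to TXNIP at the bottom with lines between roles, and each column 1 library. Colour gives log2(CPM + 1) minus the mean of the 4 AAVS1 libraries. GAPDH, SLC2A3 and TPI1 are above that mean in all 4 HOTSCRAMBL libraries, PFKL and PFKP below it, and VEGFA is below it in the HOTSCRAMBL KO libraries.

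Together the 37 genes took 0.344% and 0.373% of all counts in the AAVS1 KO libraries and 0.356% and 0.402% in the HOTSCRAMBL KO libraries. Under the base editor the shares were 0.351% and 0.370% in the AAVS1 libraries and 0.480% and 0.4996% in the HOTSCRAMBL libraries. The summed share therefore overlapped between the Cas9 groups and stood apart between the base editor groups. The upper and lower glycolysis enzymes alone stood apart with both editors. They took 0.160% and 0.183% in AAVS1 KO against 0.198% and 0.239% in HOTSCRAMBL KO. With the base editor they took 0.166% and 0.179% in AAVS1 CBE against 0.244% and 0.259% in HOTSCRAMBL CBE. Other abundant mRNAs moved in the same libraries. Ribosomal protein mRNAs took 1.36% and 1.56% of counts in AAVS1 KO against 3.98% and 4.46% in HOTSCRAMBL KO, and 1.32% and 1.60% in AAVS1 CBE against 3.20% and 3.38% in HOTSCRAMBL CBE. Mitochondrially encoded mRNAs took 3.46% and 3.75% against 6.66% and 7.09% with Cas9, and 3.47% and 3.85% against 4.11% and 4.42% with the base editor. Their part in the results on the list was not tested.

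The lower glycolysis enzymes, which carry triose phosphate to pyruvate, shared a direction: all 6 had positive log2 fold changes with both editors, and 4 of 6 passed with each: GAPDH, PGK1, ENO1 and PKM. Of all tested genes 8.76% passed with Cas9 and 8.83% with the base editor. Above the median level 16.1% and 16.8% passed. The share of positive values over all tested genes was not taken. The group's median log2 fold change was 0.62 with Cas9 and 1.05 with the base editor, beside -0.01 and -0.02 over all tested genes. GAPDH (ENSG00000111640), the NAD+-dependent dehydrogenase at the entry to this stretch, stood at 135 and 182 CPM in AAVS1 KO and 471 and 551 CPM in HOTSCRAMBL KO. With the base editor it stood at 147 and 174 CPM in AAVS1 CBE and 523.2 and 523.0 CPM in HOTSCRAMBL CBE. All 4 HOTSCRAMBL libraries were above all 4 controls, by a log2 fold change of 1.69 ± 0.12 (SE, n = 2 against 2, edgeR adjusted p 6.12e-11) with Cas9 and 1.72 ± 0.11 (adjusted p 6.03e-11) with the base editor. GAPDH shares 17.6% of its exon bases with an unnamed gene on the opposite strand, and 8.26% of the counts on it and its 65 annotated copies fell on the copies.

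ENO1 (ENSG00000074800), the enolase that makes phosphoenolpyruvate, stood at 235 and 276 CPM in AAVS1 KO and 346 and 511 CPM in HOTSCRAMBL KO. It stood at 223 and 276 CPM in AAVS1 CBE and 709.7 and 739.9 CPM in HOTSCRAMBL CBE. The groups did not overlap with either editor, and the highest values were those of HOTSCRAMBL CBE. Its log2 fold change was 0.74 ± 0.12 (edgeR adjusted p 6.97e-05) with Cas9 and 1.55 ± 0.11 (adjusted p 2.35e-10) with the base editor. PKM, pyruvate kinase, stood at 264 and 256 CPM in AAVS1 KO, 359.7 and 443 CPM in HOTSCRAMBL KO, 258 and 283 CPM in AAVS1 CBE, and 421 and 416 CPM in HOTSCRAMBL CBE. It rose by 0.62 ± 0.11 (edgeR adjusted p 4.10e-04) with Cas9 and 0.63 ± 0.11 (adjusted p 2.18e-04) with the base editor.

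PGK1, the first ATP-yielding enzyme, stood at 56.7 and 59.9 CPM in AAVS1 KO, 76.4 and 102 CPM in HOTSCRAMBL KO, 68.1 and 56.8 CPM in AAVS1 CBE, and 108 and 115 CPM in HOTSCRAMBL CBE. The groups did not overlap, with log2 fold changes of 0.62 ± 0.19 (edgeR adjusted p 0.0424) and 0.83 ± 0.17 (adjusted p 0.00166). PGAM1, a phosphoglycerate mutase, and ENO2, the second enolase, did not pass. PGAM1 had 0.49 with Cas9 and 0.36 with the base editor, and ENO2 had 0.14 and 1.27 (edgeR adjusted p 0.0696). Of the counts on PGAM1 and its 13 annotated copies, 28.6% fell on the copies. The Cas9 call on PGK1 was lost when any 1 of the 8 libraries was left out (adjusted p 0.0559 to 0.484, with a log2 fold change of 0.37 without HOTSCRAMBL KO replicate 2) and without TMM scaling (0.142), and its base editor call when AAVS1 CBE replicate 2, HOTSCRAMBL CBE replicate 1 or HOTSCRAMBL CBE replicate 2 was left out (0.0529 to 0.161). The Cas9 call on PKM was lost without AAVS1 KO replicate 2 (0.0726) or HOTSCRAMBL KO replicate 2 (0.0666).

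**Figure D2:**
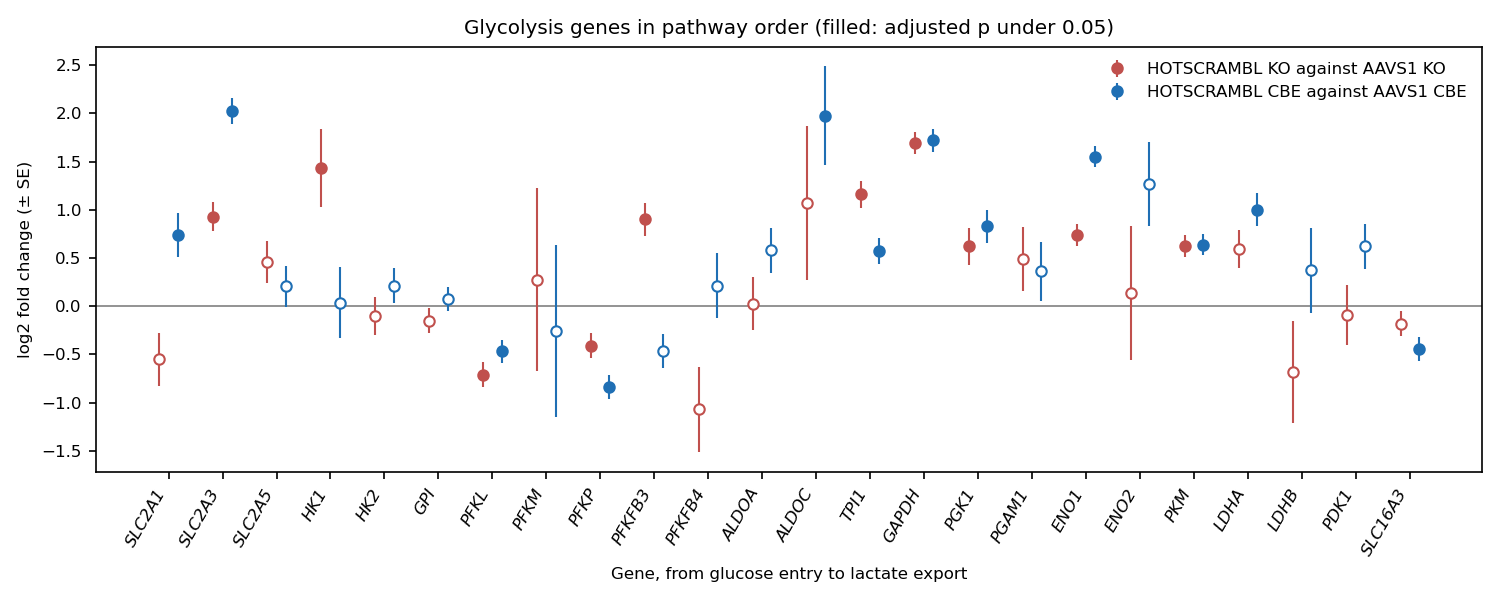
Genes run along the x axis from glucose entry to lactate export, and the y axis gives the log2 fold change of HOTSCRAMBL against AAVS1 with its standard error for Cas9 (KO) and the base editor (CBE). Filled points have an adjusted p under 0.05. From TPI1 to PKM all values are above 0, while PFKL and PFKP, both phosphofructokinase subunits, are below 0 with both editors.

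The upper enzymes were divided. Of 9, 2 passed as higher and 2 as lower with each editor. Over all tested genes 4.51% passed as higher and 4.25% as lower with Cas9, and 4.56% and 4.27% with the base editor. The median log2 fold change of the 9 was 0.03 with Cas9 and 0.07 with the base editor. TPI1, which interconverts the triose phosphates, stood at 95.5 and 136 CPM in AAVS1 KO, 246 and 269.6 CPM in HOTSCRAMBL KO, 106 and 123 CPM in AAVS1 CBE, and 159.8 and 179 CPM in HOTSCRAMBL CBE. HOTSCRAMBL libraries were above their controls with both editors, by 1.16 ± 0.14 (edgeR adjusted p 8.62e-07) with Cas9 and 0.57 ± 0.13 (adjusted p 0.00556) with the base editor. The other gene called higher differed by editor: HK1, a hexokinase, with Cas9 (1.43 ± 0.41, edgeR adjusted p 0.0243) and ALDOC, an aldolase, with the base editor (1.98 ± 0.51, adjusted p 0.0126). HK1 went from 7.25 and 8.64 CPM in AAVS1 KO to 20.0 and 22.8 CPM in HOTSCRAMBL KO, and ALDOC from 3.15 and 4.52 CPM in AAVS1 CBE to 12.9 and 17.6 CPM in HOTSCRAMBL CBE.

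The subunits of phosphofructokinase, the committed step of glycolysis, went the other way. PFKL stood at 224 and 249 CPM in AAVS1 KO and 127 and 162 CPM in HOTSCRAMBL KO, and at 241 and 254 CPM in AAVS1 CBE and 163 and 196 CPM in HOTSCRAMBL CBE. It fell by 0.71 ± 0.13 on the log2 scale (edgeR adjusted p 3.78e-04) with Cas9 and by 0.47 ± 0.12 (adjusted p 0.0110) with the base editor. PFKP stood at 202 and 219 CPM in AAVS1 KO and 144 and 173 CPM in HOTSCRAMBL KO, and at 215 and 223 CPM in AAVS1 CBE and 121 and 124 CPM in HOTSCRAMBL CBE. It fell by 0.41 ± 0.13 on the log2 scale (edgeR adjusted p 0.0470) with Cas9 and by 0.84 ± 0.13 (adjusted p 3.60e-05) with the base editor. For both genes every HOTSCRAMBL library was below every control library. The third subunit gene, PFKM, had 0.96 to 2.70 CPM and did not pass, nor did HK2, GPI or ALDOA. ALDOA shares 54.2% of its exon bases with 2 unnamed genes. PFKP's Cas9 call was lost when any 1 of the 8 libraries was left out (adjusted p 0.0615 to 0.346), and the base editor calls on PFKL (0.0645 to 0.286), TPI1 (0.0508 to 0.185) and ALDOC (0.0649 to 0.371) and the Cas9 call on HK1 (0.149 to 0.228) when any 1 of the 4 libraries compared was.

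PFKFB3 (ENSG00000170525), the bifunctional enzyme that makes fructose-2,6-bisphosphate, the activator of phosphofructokinase, rose with Cas9. It stood at 61.6 and 71.9 CPM in AAVS1 KO and 126 and 124 CPM in HOTSCRAMBL KO, a rise of 0.90 ± 0.17 (edgeR adjusted p 6.53e-04). With the base editor it stood at 74.5 and 79.7 CPM in the controls and 58.1 and 52.6 CPM in HOTSCRAMBL CBE (-0.47 ± 0.17, adjusted p 0.102), a fall that was called without TMM scaling (adjusted p 0.0246) and by DESeq2 (0.00494). HOTSCRAMBL libraries were thus above their controls with Cas9 and below them with the base editor. Without AAVS1 KO replicate 1 the Cas9 change had an adjusted p of 0.0819. PFKFB4, its relative, ranged from 4.28 to 24.1 CPM and did not pass.

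Among the transporters SLC2A3 (ENSG00000059804), which encodes the high-affinity glucose transporter GLUT3, had the strongest response. It stood at 80.1 and 76.7 CPM in AAVS1 KO and 138 and 160.3 CPM in HOTSCRAMBL KO. In AAVS1 CBE it stood at 73.6 and 86.1 CPM and in HOTSCRAMBL CBE at 333 and 313 CPM. Its log2 fold change was 0.93 ± 0.15 (edgeR adjusted p 1.20e-04) with Cas9 and 2.02 ± 0.14 (adjusted p 6.21e-11) with the base editor. SLC2A1, which encodes GLUT1, stood at 36.8 and 44.7 CPM in AAVS1 KO, 17.9 and 37.4 CPM in HOTSCRAMBL KO, 30.5 and 32.5 CPM in AAVS1 CBE, and 46.4 and 59.3 CPM in HOTSCRAMBL CBE. It passed with the base editor (0.73 ± 0.23, edgeR adjusted p 0.0434) and not with Cas9 (-0.55 ± 0.27, adjusted p 0.262). SLC16A3, the lactate exporter MCT4, passed as lower with the base editor (-0.45 ± 0.12, edgeR adjusted p 0.0210). SLC2A5, the fructose transporter, did not pass. The calls on SLC2A1 and SLC16A3 were each lost when any 1 of 6 libraries was left out, those of the AAVS1 KO, AAVS1 CBE and HOTSCRAMBL CBE groups (adjusted p 0.101 to 0.488 and 0.0563 to 0.283), and without TMM scaling SLC2A1 had 0.108.

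Of the pyruvate branch only LDHA, the lactate dehydrogenase subunit that favours lactate, passed. It stood at 48.1 and 49.5 CPM in AAVS1 KO, 75.7 and 71.7 CPM in HOTSCRAMBL KO, 53.4 and 56.5 CPM in AAVS1 CBE, and 118 and 101 CPM in HOTSCRAMBL CBE. Its groups did not overlap with either editor. Of the counts on LDHA and its 6 annotated copies, 13.8% fell on the copies. The base editor change was 1.00 ± 0.17 (edgeR adjusted p 1.61e-04), and 0.0573 without HOTSCRAMBL CBE replicate 1, while the Cas9 value of 0.59 ± 0.20 missed the threshold (adjusted p 0.0594). LDHB, the other main subunit, had 5.25 to 11.8 CPM, and PDK1, the kinase that turns off pyruvate dehydrogenase, had 21.0 to 57.0 CPM.

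In oxygen sensing, HIF1A itself did not pass with either editor (0.47 and 0.50, edgeR adjusted p 0.521 and 0.322). EGLN3, a HIF prolyl hydroxylase that is also a HIF target, was read at 2 and 38 counts in AAVS1 KO and 164 and 454 counts in HOTSCRAMBL KO, or 0.0784, 1.52, 8.37 and 20.3 CPM. With the base editor the controls had 3.36 and 1.48 CPM and the HOTSCRAMBL libraries 0 and 1.18 CPM. The Cas9 groups did not overlap, and the fitted log2 fold change was 4.17 ± 0.81 (edgeR adjusted p 7.24e-04), which rests on control counts as low as 2 and became 6.97 without AAVS1 KO replicate 2. The base editor value of -2.31 ± 1.25 did not pass (adjusted p 0.311). Of the counts on EGLN3 and its annotated copy, 22.6% fell on the copy. EGLN1, the main oxygen-sensing hydroxylase, stood at 59.7 and 52.4 CPM in AAVS1 KO and 30.0 and 31.4 CPM in HOTSCRAMBL KO and fell by 0.87 ± 0.25 on the log2 scale (edgeR adjusted p 0.0248), with 0.12 ± 0.22 with the base editor. EGLN1 shares 55.8% of its exon bases with an unnamed gene on the same strand. EGLN3's Cas9 call was lost without AAVS1 KO replicate 1, AAVS1 KO replicate 2 or HOTSCRAMBL KO replicate 2 (adjusted p 0.0612 to 0.147), and EGLN1's when any 1 of the KO or HOTSCRAMBL CBE libraries was left out (0.0501 to 0.390).

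Of the 8 other hypoxia-inducible genes tested, 3 passed as higher and 1 as lower with Cas9, and 3 as higher with the base editor. Over all tested genes 8.76% passed with Cas9 and 8.83% with the base editor, and above the median level 16.1% and 16.8%. VEGFA (ENSG00000112715, chr6:43770184-43786487), the angiogenic growth factor, was the only one of the 8 that passed as lower. It stood at 720.1 and 699 CPM in AAVS1 KO and 369.7 and 355 CPM in HOTSCRAMBL KO. In AAVS1 CBE it stood at 662 and 637 CPM and in HOTSCRAMBL CBE at 708 and 772 CPM. Both HOTSCRAMBL KO libraries were below the other 6, and VEGFA fell by 0.97 ± 0.10 on the log2 scale (edgeR adjusted p 4.40e-08) with Cas9. Its base editor value was 0.19 ± 0.09 (adjusted p 0.252).

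NDRG1, a stress-responsive gene, was the only one of the 8 to pass with both editors. It stood at 151 and 165 CPM in AAVS1 KO, 286 and 211 CPM in HOTSCRAMBL KO, 177 and 174 CPM in AAVS1 CBE, and 294 and 281 CPM in HOTSCRAMBL CBE, for log2 fold changes of 0.64 ± 0.14 (edgeR adjusted p 0.00223) and 0.71 ± 0.13 (adjusted p 3.45e-04). BNIP3 and BNIP3L, paired mitophagy receptors, passed with different editors. BNIP3 stood at 21.4 and 18.8 CPM in AAVS1 KO, 21.7 and 25.9 CPM in HOTSCRAMBL KO, 16.3 and 18.4 CPM in AAVS1 CBE, and 43.1 and 36.1 CPM in HOTSCRAMBL CBE, where it rose by 1.21 ± 0.27 (edgeR adjusted p 0.00313). BNIP3L went from 9.05 and 10.0 CPM in AAVS1 KO to 18.7 and 33.4 CPM in HOTSCRAMBL KO, a rise of 1.46 ± 0.38 (edgeR adjusted p 0.0141), and had 0.69 ± 0.31 with the base editor (adjusted p 0.192). Of the counts on BNIP3 and its 44 annotated copies, 23.0% fell on the copies.

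ADM, the vasodilator peptide adrenomedullin, stood at 2.27 and 5.68 CPM in AAVS1 KO and 15.7 and 16.1 CPM in HOTSCRAMBL KO, against 2.40 and 4.10 CPM in AAVS1 CBE and 3.27 and 3.62 CPM in HOTSCRAMBL CBE. It rose with Cas9 by 2.00 ± 0.51 (edgeR adjusted p 0.0118), and its base editor value was 0.12 ± 0.68. P4HA1, a collagen prolyl hydroxylase subunit, passed with the base editor (0.88 ± 0.27, edgeR adjusted p 0.0439). KDM3A, a histone demethylase, ranged from 113 to 166 CPM and ANKRD37 from 0.0831 to 2.68 CPM, and neither passed. Calls were lost for NDRG1 with Cas9 without AAVS1 KO replicate 1 or HOTSCRAMBL KO replicate 1 (adjusted p 0.225 and 0.212, the latter with a log2 fold change of 0.40) and with the base editor without AAVS1 CBE replicate 1 (0.0665), for BNIP3 without AAVS1 CBE replicate 1 or HOTSCRAMBL CBE replicate 1 (0.179 and 0.228), and for BNIP3L without AAVS1 KO replicate 1, AAVS1 KO replicate 2 or HOTSCRAMBL KO replicate 2 (0.175 to 0.345, the last with a log2 fold change of 0.95). ADM's call was lost when any 1 of the 4 Cas9 libraries was left out (0.0611 to 0.285), and P4HA1's when any 1 of the 8 was (0.0584 to 0.526) or without TMM scaling (0.0985).

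TXNIP, the glucose-induced inhibitor of thioredoxin and of glucose uptake, stood at 114 and 108 CPM in AAVS1 KO, 145 and 170.3 CPM in HOTSCRAMBL KO, 124 and 120.1 CPM in AAVS1 CBE, and 305 and 303 CPM in HOTSCRAMBL CBE. HOTSCRAMBL libraries were above their controls with both editors, by 0.51 ± 0.14 (edgeR adjusted p 0.0197) with Cas9 and 1.32 ± 0.13 (adjusted p 2.99e-08) with the base editor. The Cas9 call was lost without AAVS1 KO replicate 1, AAVS1 KO replicate 2 or HOTSCRAMBL KO replicate 2 (adjusted p 0.141 to 0.285) and without TMM scaling (0.122).

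**Figure D3:**
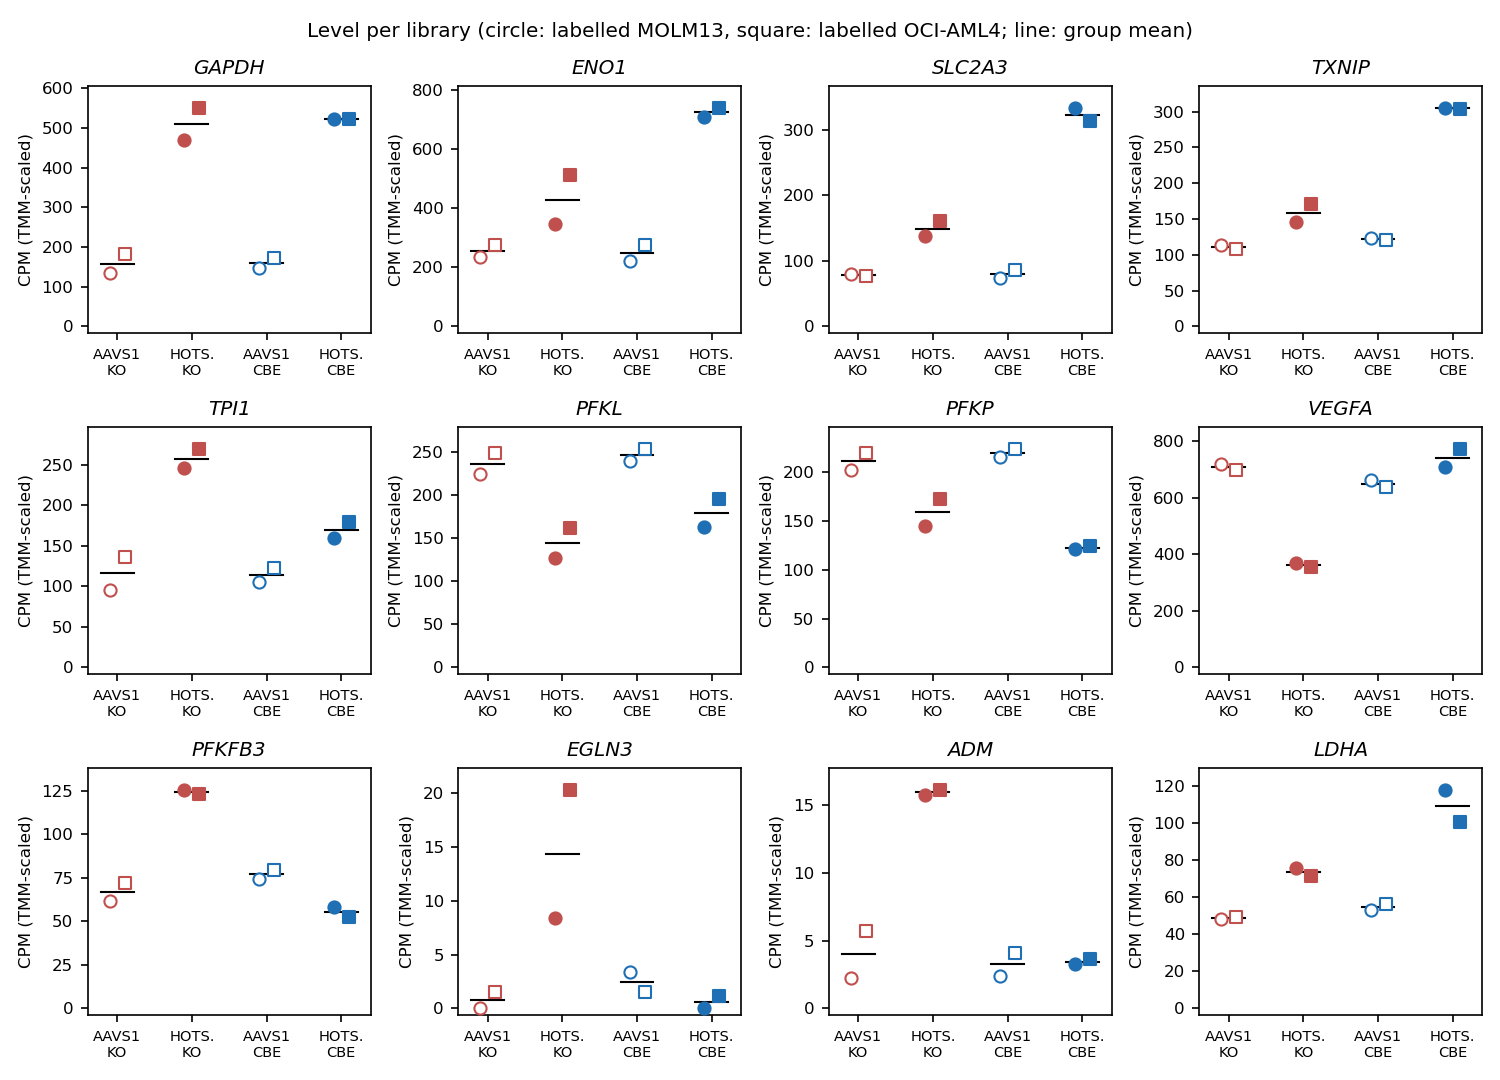
Each panel gives 1 gene's CPM on TMM-scaled library sizes in the 8 libraries by group, with circles for libraries labelled MOLM13, squares for OCI-AML4 and a line at the group mean (HOTS., HOTSCRAMBL). GAPDH is near 500 CPM only in HOTSCRAMBL libraries, with 135 to 182 CPM in the controls, VEGFA is lowest in HOTSCRAMBL KO, and SLC2A3 is highest in HOTSCRAMBL CBE.

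The effect of HOTSCRAMBL editing was then compared between the editors as an interaction, the Cas9 log2 fold change minus that of the base editor. Of the 36 genes 7 differed, 2 with a positive and 5 with a negative difference. Of all tested genes 3.19% differed (1.74% positive, 1.45% negative), and of those above the median level 6.09%. VEGFA (-1.16 ± 0.13, edgeR adjusted p 2.87e-06) fell with Cas9 alone. PFKFB3 (1.37 ± 0.24, adjusted p 9.89e-04) was higher with Cas9 and below its controls with the base editor. SLC2A3 (-1.10 ± 0.21, adjusted p 0.00191), ENO1 (-0.82 ± 0.16, adjusted p 0.00296) and TXNIP (-0.81 ± 0.19, adjusted p 0.0133) rose with both editors and more with the base editor. EGLN3 differed by 6.48 ± 1.51 (adjusted p 0.0120), a size that ran from 5.08 without AAVS1 CBE replicate 1 to 12.82 without HOTSCRAMBL CBE replicate 2, and SLC2A1 by -1.29 ± 0.36 (adjusted p 0.0441).

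The calls on VEGFA and PFKFB3 held in each fit that left out 1 library. That on SLC2A3 was lost without AAVS1 KO replicate 1, AAVS1 CBE replicate 1 or HOTSCRAMBL CBE replicate 1 (adjusted p 0.0544 to 0.0832). For ENO1 it was lost without any 1 of 6 libraries, all but HOTSCRAMBL KO replicate 2 and HOTSCRAMBL CBE replicate 2 (0.0608 to 0.107). It was lost without any 1 of 7 libraries for TXNIP and SLC2A1, all but HOTSCRAMBL KO replicate 2 (0.0797 to 0.211 and 0.128 to 0.317), and for EGLN3, all but AAVS1 CBE replicate 2 (0.0598 to 0.340). GAPDH and PKM had differences of -0.03 ± 0.16 and -0.01 ± 0.16. The remaining genes called with 1 editor, LDHA, BNIP3, BNIP3L, ADM, HK1, EGLN1, ALDOC, P4HA1 and SLC16A3, were not called for the difference by edgeR (adjusted p 0.122 to 0.759). DESeq2 called it for 3 of these 9, EGLN1 (adjusted p 0.0169), HK1 (0.0186) and ADM (0.0441), and also for TPI1 (0.00459) and PFKP (0.0138), which edgeR called with both editors.

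**Figure D4:**
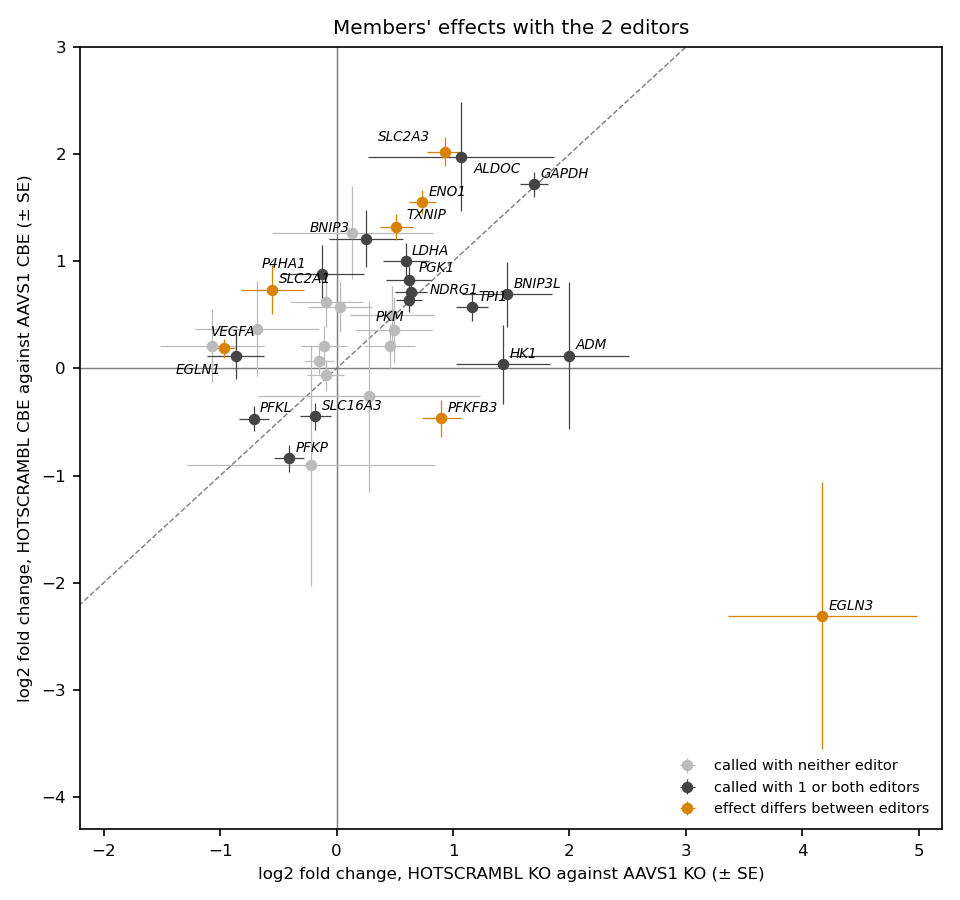
Each point is 1 of the 36 tested genes, with the log2 fold change under Cas9 on the x axis and under the base editor on the y axis, bars for standard errors and a dashed line of equal effect. GAPDH and PKM lie on the line, SLC2A3, ENO1 and TXNIP above it, and VEGFA, PFKFB3 and EGLN3 are among the 7 genes whose effect differed.

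Levels between genes were compared per kilobase of exon. GAPDH was highest at 141 CPM per kb over the 8 libraries, followed by ENO1 at 79.5, TPI1 at 60.8, TXNIP at 48.2, VEGFA at 42.6 and PKM at 39.4 CPM per kb. EGLN3 at 0.616, PFKM at 0.261 and CA9 at 0.0579 CPM per kb were lowest. Genes called higher had a median exon length of 5437 bases with Cas9 and 5216 with the base editor, and those called lower 8350 and 8926, beside 5972 for the 36 tested. Across the 36 genes exon length and log2 fold change had a Pearson correlation of -0.24 with Cas9 and -0.28 with the base editor, beside 0.03 and -0.00 over all 24057 genes, and the points share the same libraries.

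Further genes of these pathways were taken from lists, whose shares are to be read against the 8.76% of all genes called with Cas9 and 8.83% with the base editor, or 16.1% and 16.8% of genes above the median level. Of 18 further glycolysis and glucose-entry genes tested, 2 rose with Cas9 (11.1%, near the share of all genes), and 3 rose and 1 fell with the base editor (22.2%). PGM1, the phosphoglucomutase linking glycogen to glycolysis, was higher in HOTSCRAMBL than in AAVS1 libraries with both editors, by 1.46 and 1.59 (edgeR adjusted p 0.00162 and 2.19e-04). BSG, the chaperone of lactate transporters, was higher by 0.42 and 0.70. Its Cas9 groups overlapped, at 444 and 594 CPM in AAVS1 KO and 589 and 796 CPM in HOTSCRAMBL KO. BSG also differed by line label, with -0.37 for MOLM13 against OCI-AML4 (edgeR adjusted p 0.00464). With the base editor SLC16A1, the lactate transporter MCT1, was also higher, by 0.73, and ENO3 fell by 1.05 on the log2 scale. Of 13 further HIF pathway regulators, 3 rose with Cas9 (23.1%), namely CITED2, which competes with HIF for its coactivators (0.68, edgeR adjusted p 1.40e-04), ELOB, an elongin subunit (1.16), and EPAS1, which encodes HIF-2 alpha (1.60, adjusted p 0.0368). With the base editor 1 rose (7.69%, below the share of all genes), CREBBP, the coactivator CBP (0.45). Whether calls on single genes of these lists, here and in the next paragraph, hold under the alternative fits was not tested. Some members called near the threshold, such as PFKP and PGK1 with Cas9, lost their calls when any 1 library was left out.

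Of 32 further hypoxia-inducible genes, 2 rose and 3 fell with Cas9 (15.6%, beside 8.76% of all genes and 16.1% of those above the median level). With the base editor 2 rose (6.25%, beside 8.83% and 16.8%). PDK3, a pyruvate dehydrogenase kinase (1.45), and CXCR4, a chemokine receptor (1.38), rose with Cas9, while GBE1, the glycogen branching enzyme, fell by 0.77 and KDM4B, a histone demethylase, by 0.47 on the log2 scale. MIR210HG, host transcript of a hypoxia-induced microRNA, had 118 and 122 counts in AAVS1 KO and 4 and 0 in HOTSCRAMBL KO (edgeR adjusted p 0.0335), and 96, 16, 174 and 162 counts in the base editor libraries. ZNF395 (0.84) and STC2 (0.86) rose with the base editor. Of 10 genes of pyruvate dehydrogenase and its regulation 0 passed in edgeR's test with either editor, with 0 at an unadjusted p under 0.05 with Cas9 and 4 with the base editor. No other tool's count was taken for that list. Of 14 pentose phosphate and glucose-responsive genes, 3 rose with Cas9 (21.4%), and 4 rose and 1 fell with the base editor (35.7%), beside 8.76% and 8.83% of all genes. The pentose phosphate enzyme PGD (0.74 and 0.57) and the glucose-sensing factor MLXIPL (0.72 and 0.56) rose with both, TKT with Cas9 (0.63), and TALDO1 (0.61) and TXN, thioredoxin itself (1.43), with the base editor, where MLXIP fell by 0.54 on the log2 scale.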

How the data were processed

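The authors counted reads per gene with featureCounts 2.0.6 on GRCh38, per the submitters' processing notes and the file headers, which also show Ensembl 112 gene models, no strand setting, no multi-mapping reads and no reads shared between overlapping genes. The deposited values are raw counts. Paired reads were counted singly (71.8% to 74.9% of the counts between 1 and 20 are even), and overlapping or antisense genes cannot be told apart. Symbols matched 62541 of 63140 identifiers (99.05%), and 2 gene records broken over 4 continuation lines were rejoined.

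edgeR 4.0.16 (R 4.3.3) was run with filterByExpr (minimum count 10), TMM scaling and robust quasi-likelihood F-tests, in a model of group plus labelled line over all 8 libraries (3 residual degrees of freedom). P-values were Benjamini-Hochberg adjusted over 24057 genes with a threshold of 0.05. SE is the log2 fold change over the square root of F. The script was tested on simulated counts. Levels are CPM on TMM-scaled library sizes. With 1 library per labelled line and group, p-values measure the spread between these libraries, which may be technical, and counts cover counting error only.

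Pairing comes from the labelled line: the deviations of same-numbered libraries correlated by 0.020 to 0.053 between groups over all tested genes. Above the median level they correlated by 0.045 to 0.127. Replicates differed beyond sampling noise. Alternatives were DESeq2 1.42.0 and its size factors, no TMM, no filter, limma-voom (limma 3.58.1), the 4 libraries of a contrast, no line term, counts divided by 2, each library left out and, chosen after seeing the data, edgeR's legacy estimate. The members and lists were chosen with earlier results of these data known. Full statistics are given for the 16 members with the smallest p past the threshold in the Cas9, base editor or difference contrast, and of other lists for at most 5 genes per list and contrast. Other members passing the threshold are given briefly, and those not passing by values where a paragraph turns on them.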

Additional observations from a re-analysis of the deposited data

Results flagged for a closer look

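The HOTSCRAMBL effect differed between the editors, by the interaction test in edgeR's quasi-likelihood fit (Cas9 minus base editor, log2, adjusted over 24057 genes), for 7 of the 36 tested genes. VEGFA differed by -1.16 ± 0.13 (SE, edgeR adjusted p 2.87e-06), below its controls in both Cas9 pairs and above them in both base editor pairs. PFKFB3 differed by 1.37 ± 0.24 (adjusted p 9.89e-04), the reverse pattern. The base editor change on its own did not pass for VEGFA or PFKFB3 (edgeR adjusted p 0.252 and 0.102). The pairs hold the same libraries as the test, so their directions are no separate support. SLC2A3 differed by -1.10 ± 0.21 (adjusted p 0.00191), ENO1 by -0.82 ± 0.16 (adjusted p 0.00296) and TXNIP by -0.81 ± 0.19 (adjusted p 0.0133), each above its controls in all 4 pairs. EGLN3 differed by 6.48 ± 1.51 (adjusted p 0.0120) at low counts, with 5.08 to 12.82 when 1 library was left out, and SLC2A1 by -1.29 ± 0.36 (adjusted p 0.0441). Groups of 2 libraries are too small to look for single libraries that stand apart.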

How the results depend on the processing

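No direction of a called member reversed, and single genes outside the members were not followed. GAPDH, SLC2A3, ENO1, VEGFA, TPI1 and PFKL kept their Cas9 calls under all 17 alternatives. GAPDH, SLC2A3, ENO1, TXNIP, PFKP and PKM kept their base editor calls under all 17 alternatives. VEGFA and PFKFB3 kept their difference calls under all 16. Without the replicate block (the labelled line), 15 members passed with Cas9, 12 with the base editor and 5 for the difference, and 503 genes for the difference in place of 767; PFKP and PGK1 lost their Cas9 calls, PFKL, SLC2A1, SLC16A3 and P4HA1 their base editor calls, and ENO1 and SLC2A1 their difference calls. With only the 4 libraries of a contrast, 9 members and 780 genes passed with Cas9 and 8 and 677 with the base editor, for which fewer residual degrees of freedom remain. DESeq2 called 4150 genes with Cas9, 3351 with the base editor, 2205 for the difference (12 members, TPI1, PFKP, ADM, HK1 and EGLN1 beside the 7), 35 between controls and 715 between labelled lines (2 members). limma-voom called 1 gene between controls and 250 between lines, and the legacy estimate, chosen after seeing the data, 193 between lines (1 member). With no TMM scaling, the all-gene median moved to -0.17 with Cas9 and -0.15 with the base editor, the split of calls over all genes from 1085 higher and 1023 lower to 840 and 1695 with Cas9 and from 1096 and 1028 to 782 and 1616 with the base editor, and that of members to 11 higher and 4 lower with each. LDHA with Cas9 passed with DESeq2, with counts divided by 2 and with the legacy estimate, PFKFB3 with the base editor passed without TMM and with DESeq2, and EGLN3 with the base editor with the legacy estimate. Leaving out 1 library, after which the lone library of a group is assumed to vary like the others, gave 7 to 15 members with Cas9, 7 to 15 with the base editor, 2 to 6 for the difference and 0 for controls and lines, and over all genes 677 to 1674, 586 to 1885, 226 to 372, 0 and 26 to 65. The lowest totals came without AAVS1 KO replicate 1 (Cas9 and difference) and without HOTSCRAMBL CBE replicate 1 (base editor). EGLN3, MIR210HG, CA9, PFKM and ANKRD37 are limited by depth.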
